A study of Mus musculus with 8 samples.

Results

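The transcripts described here are 10 genes of transforming growth factor beta (TGF-beta) and activin signalling: the ligand genes Tgfb1, Tgfb2 and Tgfb3, the type I receptor gene Tgfbr1, the transducer genes Smad2 and Smad3, and the inhibitor genes Smad7, Skil, Pmepa1 and Fstl3. They were chosen from earlier results on the same comparison of mutant and wild-type libraries, so their differences are given as a description and without a test. All 10 were found among 13869 genes in the deposited table, and all 10 passed the filter on low values that left 13740 genes for testing. The RNA was that of the ventricles of embryonic mouse hearts, at the stage E14.5, in a series on MIB1 and left ventricular noncompaction. The mutants carried a floxed Mib1 allele (Mib1flox) and Cre recombinase driven by the cardiac troponin T promoter (TnT-Cre), and the controls were wild-type (WT) siblings from the same experiment. Mib1 encodes a ubiquitin ligase that Notch ligands need in the cells that send the signal, and this Cre is active in cardiomyocytes, so other cell types of the ventricle keep the gene. The 16 hearts of each genotype were combined into 4 pools, and 1 library was made from each pool, which leaves 4 mutant and 4 wild-type libraries. Strain and the number of floxed alleles per embryo are not given in the sources used here.

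TGF-beta ligands are secreted in a latent form and, once released, bind a type II receptor that activates the type I receptor encoded by Tgfbr1. The receptor phosphorylates SMAD2 and SMAD3, which enter the nucleus with SMAD4 and change transcription; activins reach the same pair of SMADs through other receptors. The pathway switches on its own inhibitors, among them SMAD7, SnoN (encoded by Skil) and PMEPA1, and in the embryonic heart it is best known for cushion and valve formation, the epicardium and the smooth muscle of vessels.

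Mib1 itself stood at 106, 103, 95.3 and 96.3 CPM (counts per 1000000 counts) in mutant libraries 1 to 4 and at 150.3, 166, 160.5 and 167 CPM in wild-type libraries 1 to 4, a log2 difference of −0.68 ± 0.06 (SE; limma adjusted p = 8.62e-06). The library totals lay between 6307634 and 11506082 counts, and 3 counts, taken as the floor of detection, were worth between 0.265 and 0.472 CPM (counting error only). Cardiomyocyte markers were abundant in every library, with Myh7 between 15312 and 18373 CPM. Of all genes tested, 2.24% were called at an adjusted p under 0.05, 0.99% as higher and 1.25% as lower in the mutants. In 4.27% all 4 mutant libraries lay above all 4 wild-type libraries, and in 4.65% all 4 lay below.

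The inhibitor genes were higher in the mutants, whereas the ligand and receptor genes were close to wild type, apart from a small difference in Tgfb2. Fstl3 stood 1.45-fold, Pmepa1 1.35-fold, Skil 1.33-fold and Smad7 1.25-fold above wild type. Smad2 was 1.24-fold higher, while Smad3 was 1.1-fold lower. In bulk tissue, fewer cells of a type and less RNA per cell cannot be told apart. The median log2 difference of the 10 genes was 0.25, against 0.00092 for all genes tested. Above 0 lay 8 of the 10, beside 50.3% of all genes tested. For 6 genes (Tgfb2, Smad2, Smad7, Skil, Pmepa1 and Fstl3) the groups did not overlap. The fit over all genes called 4 of the 10, all higher: Smad2, Skil, Pmepa1 and Fstl3. Without a trend of the variance over expression level 1 was called, and with endothelial or macrophage marker levels as a covariate 0 were. With the macrophage covariate the log2 differences were 0.36 ± 0.16 for Smad2, 0.26 ± 0.17 for Skil, 0.60 ± 0.19 for Pmepa1 and 0.75 ± 0.22 for Fstl3 (SE), with errors over the 10 genes 2.3 times as large at the median. Since the genes were picked with this contrast in view, these counts carry no weight of their own beside the shares of all genes given above.

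**Figure D1:**
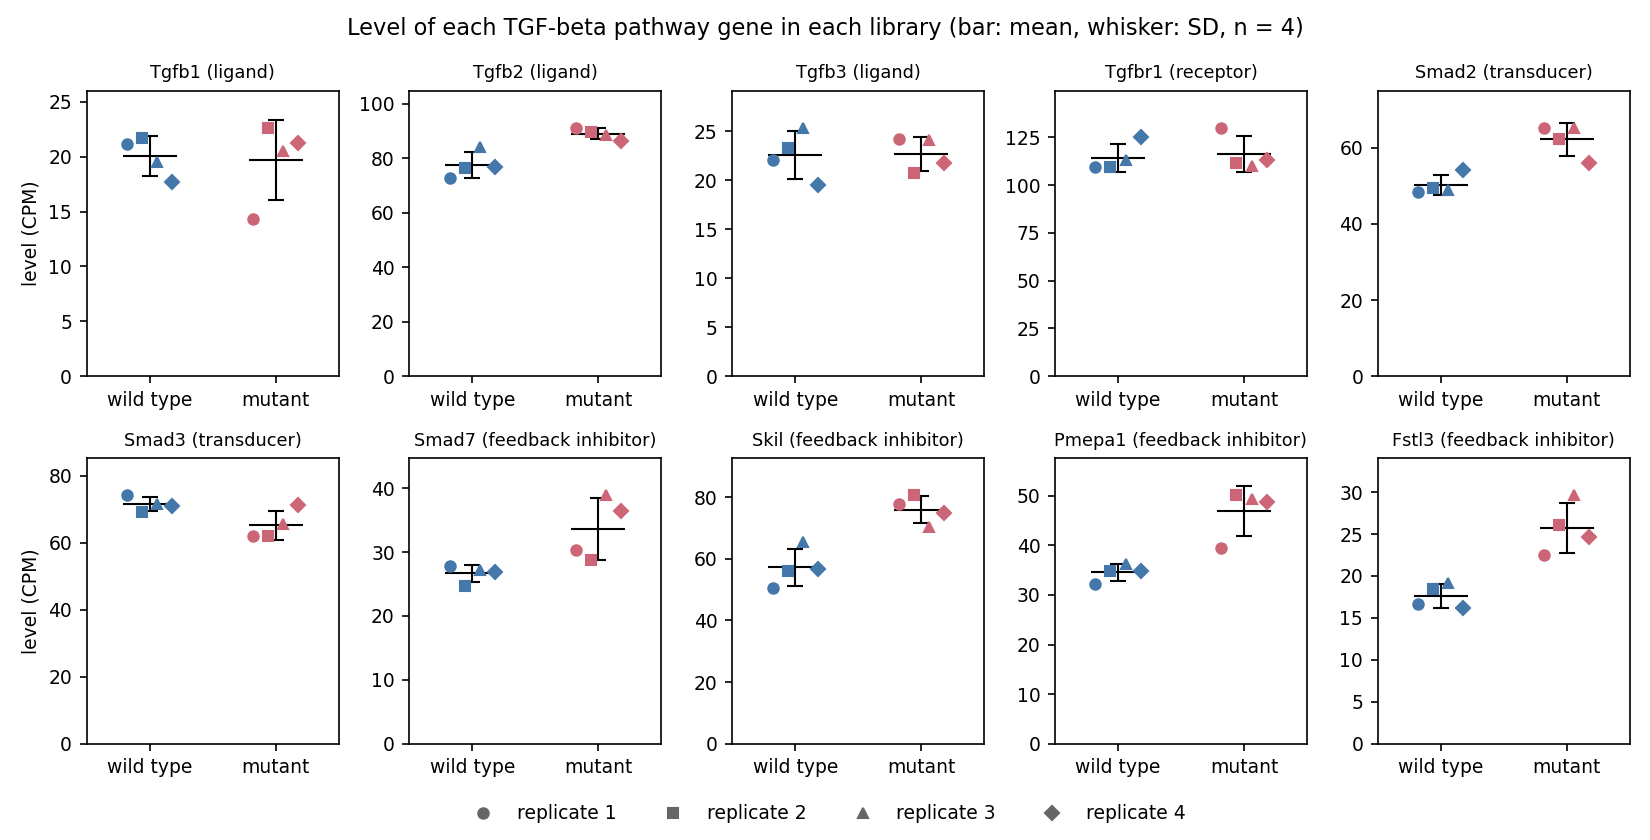
Level in CPM (y axis, from 0) of each of the 10 genes in each wild-type (blue) and mutant (red) library, with symbols for the replicates, a bar for the mean and whiskers for the SD (n = 4). The 4 mutant libraries lie above the 4 wild-type libraries for Tgfb2, Smad2, Smad7, Skil, Pmepa1 and Fstl3, and overlap with them for the other 4 genes.

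Among the ligands, Tgfb2 was the most abundant and the only one whose groups were apart. Tgfb2 (ENSMUSG00000039239), the ligand most closely tied to cushion formation, gave 91.3, 89.7, 88.6 and 86.5 CPM in mutant libraries 1 to 4 and 72.8, 76.6, 84.3 and 76.7 CPM in wild-type libraries 1 to 4. The lowest mutant library stood just above the highest wild-type library, replicate 3. The log2 difference was 0.20 ± 0.06 (SE), and the 4 mutant libraries varied by 2.27% (coefficient of variation), less than the 3.70% that counting alone would give.

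Tgfb1 (ENSMUSG00000002603), the family member made by many blood, endothelial and stromal cells, gave 14.4, 22.6, 20.5 and 21.3 CPM in the mutants and 21.2, 21.8, 19.5 and 17.7 CPM in wild type. The groups overlapped, and mutant replicate 1 was the lowest of the 8 libraries. Without that library the log2 difference of Tgfb1 was 0.10, against −0.04 ± 0.13 (SE) with it. In the same library the summed level of the erythroid markers was also the lowest of all, at −0.92 relative to the wild-type mean on the log2 scale. So were the sums of the macrophage (−0.69), endothelial (−0.25), fibroblast and cushion (−0.13) and atrial markers (−0.10). Beyond the fits with endothelial or macrophage markers as a covariate, the part of these levels in the Tgfb1 value was not tested. Tgfb3 (ENSMUSG00000021253) gave 24.2, 20.7, 24.1 and 21.8 CPM in the mutants and 22.1, 23.3, 25.4 and 19.6 CPM in wild type. Its values were mixed between the groups, at a log2 difference of 0.01 ± 0.09 (SE).

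Per kilobase of the longest coding transcript, Tgfb2 made up 48.9% ± 2.47 (SD, n = 4) of the 3 ligand transcripts in wild type and 52.5% ± 2.65 in the mutants. The share of Tgfb1 was 29.7% ± 2.32 in wild type and 27.2% ± 4.35 in the mutants, and that of Tgfb3 was 21.4% ± 1.13 and 20.3% ± 1.99. For each ligand the shares overlapped between the groups, so the make-up of the ligand pool was not set apart by genotype at this spread. With the median length of the coding transcripts in place of the longest, the wild-type shares were 53.2%, 27.2% and 19.6%, in the same order.

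Tgfbr1 (ENSMUSG00000007613), which encodes the type I receptor ALK5, gave 130.0, 112, 110.0 and 113 CPM in the mutants and 109.5, 109.3, 113 and 125 CPM in wild type. The groups overlapped, with mutant replicate 1 and wild-type replicate 4 the highest of their groups. The log2 difference was 0.02 ± 0.07 (SE). Its ratio to Tgfbr2, the type II receptor gene, per kilobase of longest transcript, was 1.95 ± 0.26 (SD, n = 4) in the mutants and 1.93 ± 0.05 in wild type. Mutant replicate 1 lay above every wild-type ratio, at 2.34, and the other 3 mutant libraries lay below them, at 1.80 to 1.86.

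The 2 transducer genes differed in opposite directions. Smad2 (ENSMUSG00000024563) gave 65.2, 62.3, 65.2 and 55.9 CPM in the mutants and 48.4, 49.4, 49.0 and 54.2 CPM in wild type. The groups did not overlap, but mutant replicate 4 and wild-type replicate 4 came close to each other. Its log2 difference was 0.31 ± 0.07 (SE). The Smad2 call did not survive the omission of mutant replicate 1 or 2, or of wild-type replicate 1, 2 or 3. Removing the variance trend or adding the replicate block also cost Smad2 its call. Smad3 (ENSMUSG00000032402) gave 62.1, 62.0, 65.5 and 71.4 CPM in the mutants and 74.2, 69.3, 71.7 and 71.0 CPM in wild type. Mutant replicates 1 to 3 lay below every wild-type library, and mutant replicate 4 lay among them. The log2 difference of Smad3 was −0.14 ± 0.06 (SE).

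The ratio of Smad2 to Smad3 per kilobase of longest transcript was 0.66, 0.63, 0.63 and 0.49 in mutant libraries 1 to 4 and 0.41, 0.45, 0.43 and 0.48 in wild-type libraries 1 to 4. All 4 mutant ratios were above the wild-type ratios, with replicate 4 again the closest pair. Smad2 and Smad7 lie on the chromosome that carries Mib1, according to the GRCm38 annotation. Of the other 338 tested genes on that chromosome 11 were called (3.25%), against 2.20% of the genes elsewhere, and the part of this in the Smad2 and Smad7 values was not tested.

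**Figure D2:**
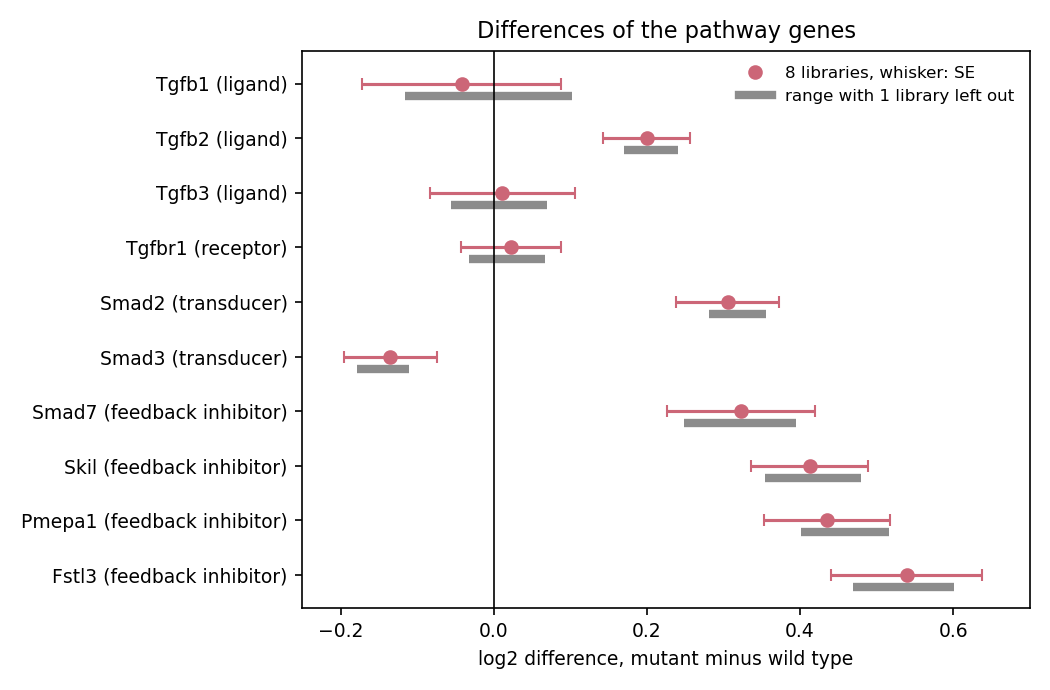
Log2 difference of mutant minus wild type (x axis) for each of the 10 genes, with the point and SE from all 8 libraries in red and the range when each library is omitted in turn in grey. The 4 inhibitor genes, Smad2 and Tgfb2 lie to the right of 0 over their whole range, Smad3 lies to the left, and Tgfb1, Tgfb3 and Tgfbr1 straddle 0.

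Smad7 (ENSMUSG00000025880), the inhibitory SMAD that blocks the activated receptor, gave 30.3, 28.8, 38.9 and 36.5 CPM in the mutants and 27.8, 24.8, 27.2 and 26.9 CPM in wild type. All mutant libraries were higher, but replicates 1 and 2 by little and replicates 3 and 4 by far more. The log2 difference was 0.32 ± 0.10 (SE), and the mutant libraries varied by 14.4%, where counting alone would give 6.02%.

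Skil (ENSMUSG00000027660) encodes SnoN, a nuclear repressor that binds the SMAD complex and is degraded when the pathway is activated. It gave 77.9, 80.7, 70.5 and 74.7 CPM in the mutants and 50.4, 56.2, 65.4 and 56.9 CPM in wild type. The groups did not overlap, and wild-type replicate 3 was nearest to the mutants. Its log2 difference was 0.41 ± 0.08 (SE) and lay between 0.35 and 0.48 when single libraries were omitted.

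Pmepa1 (ENSMUSG00000038400), a membrane protein gene induced by the pathway that keeps SMAD2 and SMAD3 from the receptor, gave 39.5, 50.1, 49.4 and 48.7 CPM in the mutants and 32.3, 34.9, 36.2 and 34.8 CPM in wild type. The wild-type libraries were close together, and mutant replicate 1 lay nearer to them than the other mutants. The log2 difference was 0.44 ± 0.08 (SE) and 0.52 without mutant replicate 1. The Pmepa1 call was lost without mutant replicate 2, without wild-type replicate 1 and without the variance trend.

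Fstl3 (ENSMUSG00000020325) encodes a secreted relative of follistatin that binds and neutralizes activins and myostatin. It gave 22.5, 26.1, 29.6 and 24.7 CPM in the mutants and 16.7, 18.4, 19.2 and 16.1 CPM in wild type, at 198 to 255 and 116 to 166 counts. Every mutant library was above every wild-type library. The log2 difference of Fstl3 was 0.54 ± 0.10 (SE), the largest of the 10 genes, and lay between 0.47 and 0.60 when single libraries were omitted. Its relative Fst was near the limit of counting, at 2.85 ± 0.72 CPM in the mutants and 1.85 ± 0.35 CPM in wild type (SD, n = 4), and was not called (log2 difference 0.59 ± 0.25, SE; limma adjusted p = 0.287).

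Promoter sequence was at hand for 5 of the 10 genes (Tgfb1, Tgfb2, Tgfbr1, Smad3 and Fstl3) in RefSeq, build GRCm38.p6. The 250 bases before the start are shown for the 2 of these genes whose groups did not overlap, Fstl3 and Tgfb2, and for Tgfb1, whose groups did. Capitals mark matches to the core letters that SMAD3 and SMAD4 are known to bind, CAGAC, on either strand (GTCTG on the printed strand). Positions are chr10:79777024-79777273 (plus strand) for Fstl3, chr1:186705990-186706239 (minus strand) for Tgfb2 and chr7:25686752-25687001 (plus strand) for Tgfb1.
Fstl3: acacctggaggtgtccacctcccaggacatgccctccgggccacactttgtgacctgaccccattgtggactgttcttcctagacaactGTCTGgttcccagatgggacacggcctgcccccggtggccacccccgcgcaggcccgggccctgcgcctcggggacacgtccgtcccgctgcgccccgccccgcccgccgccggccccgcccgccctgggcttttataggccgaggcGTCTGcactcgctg
Tgfb2: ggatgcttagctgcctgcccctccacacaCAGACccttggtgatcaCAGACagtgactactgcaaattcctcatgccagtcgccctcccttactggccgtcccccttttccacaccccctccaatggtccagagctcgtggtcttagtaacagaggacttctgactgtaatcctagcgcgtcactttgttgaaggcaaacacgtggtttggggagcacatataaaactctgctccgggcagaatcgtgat
Tgfb1: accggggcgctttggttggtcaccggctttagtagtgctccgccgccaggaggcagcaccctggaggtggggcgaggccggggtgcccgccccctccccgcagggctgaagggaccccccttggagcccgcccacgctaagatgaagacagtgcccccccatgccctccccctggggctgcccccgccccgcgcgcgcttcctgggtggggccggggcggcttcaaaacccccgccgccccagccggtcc
Fstl3 and Tgfb2 held 2 matches each, which began 161 and 14 bases before the start in Fstl3 and 221 and 204 bases before it in Tgfb2. Tgfb1, Tgfbr1 and Smad3 held 0. Of 27025 mouse promoters of the same length, 42.1% held at least 1 match and 11.7% at least 2. The longer palindrome GTCTAGAC was in 0.174% of the promoters and in none of these 5. A match of these letters is a description of the sequence and does not show a bound site.

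The 10 genes did not all rank the mutant libraries in the same order, and correlation between the genes was not computed. Relative to the wild-type mean on the log2 scale, mutant replicate 1 stood at 0.19 for Pmepa1 and at 0.45 for Skil, while mutant replicate 3 stood at 0.52 and 0.31 for these genes. Fstl3 was highest in mutant replicate 3 (0.75), as was Smad7 (0.54). Skil was highest in mutant replicate 2, at 0.50. Above the highest wild-type library stood 7 of the 10 genes in mutant replicates 1 and 2, and 6 in mutant replicates 3 and 4. The 6 genes whose groups did not overlap are in each of these counts by definition. Below the lowest wild-type library stood 2, 1, 1 and 0 of the 10 genes in mutant replicates 1 to 4. The matching shares of all genes were not counted.

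**Figure D3:**
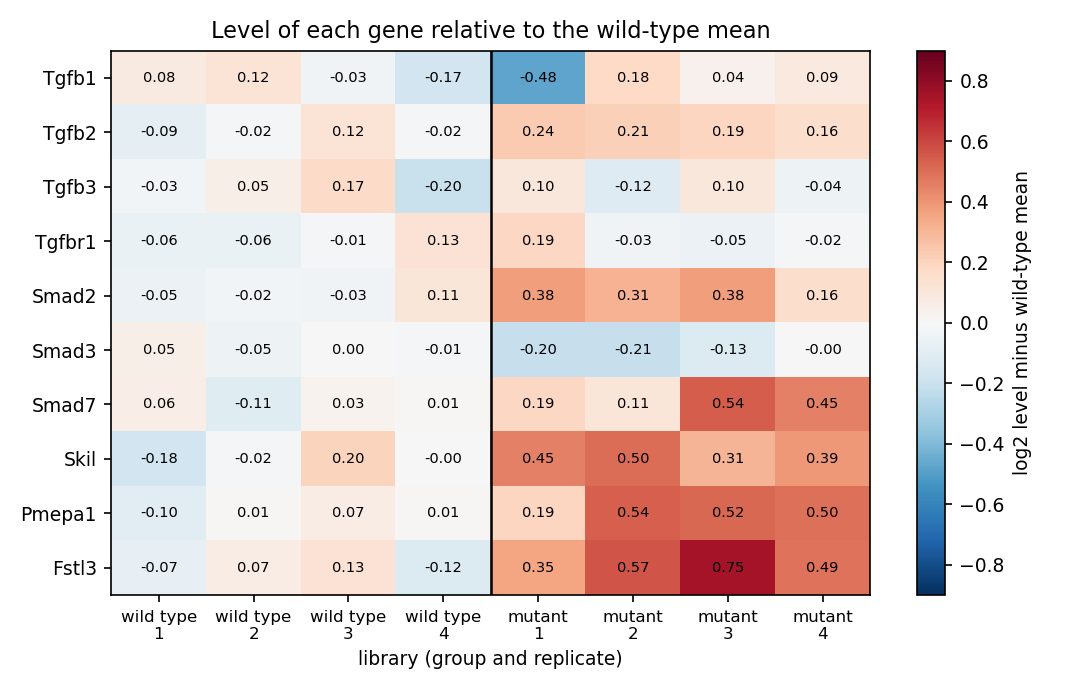
Log2 level of each of the 10 genes (rows) in each library (columns) minus the mean of the 4 wild-type libraries, printed in each cell and coloured from blue (lower) to red (higher). Fstl3 reaches 0.75 in mutant replicate 3, and Tgfb1 is at −0.48 in mutant replicate 1.

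In order of level per kilobase of the longest coding transcript, wild-type ventricles held Tgfbr1 at 19.8 ± 1.28 CPM per kilobase (SD, n = 4), Tgfb2 at 15.2 ± 0.94, Smad3 at 14.1 ± 0.40, Tgfb1 at 9.22 ± 0.83, Fstl3 at 9.02 ± 0.74, Skil at 8.52 ± 0.92, Pmepa1 at 7.61 ± 0.36, Tgfb3 at 6.67 ± 0.72, Smad7 at 6.24 ± 0.31 and Smad2 at 6.21 ± 0.33. Only 2 neighbours in this order were apart in all libraries, Tgfbr1 from Tgfb2 and Smad3 from Tgfb1. From Tgfb1 down to Smad2 each gene overlapped with the next. In the mutants Fstl3 stood next after Tgfb2, at 13.2 ± 1.53 against 17.4 ± 0.39. There Fstl3 overlapped with Smad3, the next in order, at 12.8 ± 0.87. The order depends on the transcript length used: with the median coding length, Smad3 came before all others and Smad2 moved up to place 3 in wild type.

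The genes with the profile closest to the 3 largest differences were looked for among 10739 genes, by the root mean square distance between log2 profiles over the 8 libraries after each gene's mean was subtracted. Nearest to Fstl3 were Ptgis (distance 0.07), Krt18 (0.08) and Fzd2 (0.08), with log2 differences of 0.46, 0.46 and 0.46. Near to Pmepa1 were Stk36 (distance 0.06) and Rhobtb1 (0.07), with log2 differences of 0.47 and 0.39. For Skil they were Tmem35a (distance 0.07), Alkbh8 (0.08) and Rgs2 (0.08), with log2 differences of 0.48, 0.28 and 0.35. The difference between the genotypes is part of each profile, so similar log2 differences follow from the way these genes were found.

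The rest of the pathway was compared through lists of other ligands, receptors, transducers, inhibitors, activators of latent ligand and target genes, 128 genes in all, of which 110 were tested. Of these 4 rose and 0 fell, against 0.99% of all genes called higher and 1.25% called lower, and 106 were not called. An unadjusted limma p under 0.05 was found for 20 of the 110, beside 2033 of all 13740 genes tested. Their median log2 difference was 0.03, against 0.00092 for all genes tested.

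None of 5 other ligand genes was called, and the groups overlapped for each. The activin subunit gene Inhba stood at 6.87 ± 0.90 CPM in the mutants and 6.18 ± 0.59 CPM in wild type (SD, n = 4; log2 difference 0.15 ± 0.15, SE; limma adjusted p = 0.696). Gdf11 stood at −0.10 and the myostatin gene Mstn at 0.04 on the log2 scale. None of 10 receptor genes was called either. Eng, the endoglin coreceptor gene of endothelial cells, had the smallest p, at 203 ± 6.72 CPM in the mutants and 230.5 ± 10.1 CPM in wild type (log2 difference −0.18 ± 0.05, SE; limma adjusted p = 0.0792). Acvrl1, the endothelial type I receptor gene, stood at −0.18 and Tgfbr2 at 0.01. The endothelial markers were lower in the same libraries, 10 of 11 below 0 and 5 called lower, against 1.25% of all genes tested. Their summed level was 1200 to 1233 CPM in the mutants and 1415 to 1443 CPM in wild type, and none of these markers was at 0. With their level as a covariate, which separates the genotypes by itself, the log2 difference of Eng was 0.46 ± 0.35 (SE; limma adjusted p = 0.687), and genotype and marker level cannot be told apart. Acvr2a, an activin type II receptor gene, stood at 0.22 ± 0.08 (SE; limma adjusted p = 0.212) with no overlap between the groups.

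Of 15 transducer genes none was called. Trim33, a ubiquitin ligase gene that acts with SMAD2 and SMAD3, had the smallest p at 0.16 ± 0.07 (SE; limma adjusted p = 0.303), and Smad4, the common partner, stood at 0.09 ± 0.05 (SE). Of 28 other inhibitor genes 1 rose, Fstl1, a secreted follistatin-like glycoprotein gene, from 946 ± 24.9 to 1081 ± 29.1 CPM (SD, n = 4; log2 difference 0.19 ± 0.05, SE; limma adjusted p = 0.0437). When single libraries were omitted, the Fstl1 call held only without mutant replicate 3, and it was lost with the replicate block (limma adjusted p = 0.111). Of the 28 genes 22 lay above 0, beside 50.3% of all genes tested, with a median of 0.05. Ski, the closest relative of Skil, stood at 0.08 ± 0.05 (SE), the other inhibitory SMAD gene Smad6 at 0.05 ± 0.13 (SE) and the pseudoreceptor gene Bambi at −0.0011 ± 0.0648 (SE). The ratio of Skil to Ski per kilobase of longest transcript was 0.33 to 0.41 in the mutants and 0.27 to 0.33 in wild type, with mutant replicate 3 and wild-type replicate 3 almost equal.

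Genes that release the latent ligand held 0 calls among 17. Itgb3, an integrin beta subunit gene, had the smallest p at 0.30 ± 0.10 (SE; limma adjusted p = 0.141), and the thrombospondin gene Thbs1 stood at 0.20 ± 0.07 (SE; limma adjusted p = 0.193).

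Of 39 target genes 3 rose and 0 fell, against 0.99% of all genes called higher and 1.25% called lower. Tnc, an extracellular matrix glycoprotein gene, gave 107, 115, 114 and 104 CPM in the mutants and 85.8, 86.7, 78.9 and 83.4 CPM in wild type, a log2 difference of 0.39 ± 0.06 (SE; limma adjusted p = 0.00132). The smooth muscle actin gene Acta2 rose from 846 ± 71.2 to 1088 ± 50.7 CPM (SD, n = 4; log2 difference 0.36 ± 0.06, SE; limma adjusted p = 0.00614), and the calponin gene Cnn1 from 138 ± 6.41 to 169.9 ± 14.3 CPM (0.30 ± 0.06, SE; limma adjusted p = 0.0221). The groups did not overlap for these 3 genes. Tnc and Acta2 kept their calls whichever library was omitted, whereas Cnn1 lost its call without mutant replicate 2 and without any of the 4 wild-type replicates. Without the variance trend Acta2 and Cnn1 were not called (limma adjusted p = 0.0688 and 0.121), and with the macrophage covariate none of the 3 was (limma adjusted p = 0.223 for Tnc, 0.366 for Acta2 and 0.354 for Cnn1).

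Other target genes did not pass the test. Tagln, a smooth muscle gene, stood at 0.51 ± 0.14 (SE; limma adjusted p = 0.0792) and Tgfbi at 0.27 ± 0.12 (SE; limma adjusted p = 0.291). Ccn2, which encodes connective tissue growth factor, stood at −0.07 ± 0.10 (SE), Klf10 at −0.03, Postn at −0.01 and Col1a1 at −0.15 ± 0.07 (SE; limma adjusted p = 0.373). The list median was 0.03, with 21 members above 0 and 18 below.

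**Figure D4:**
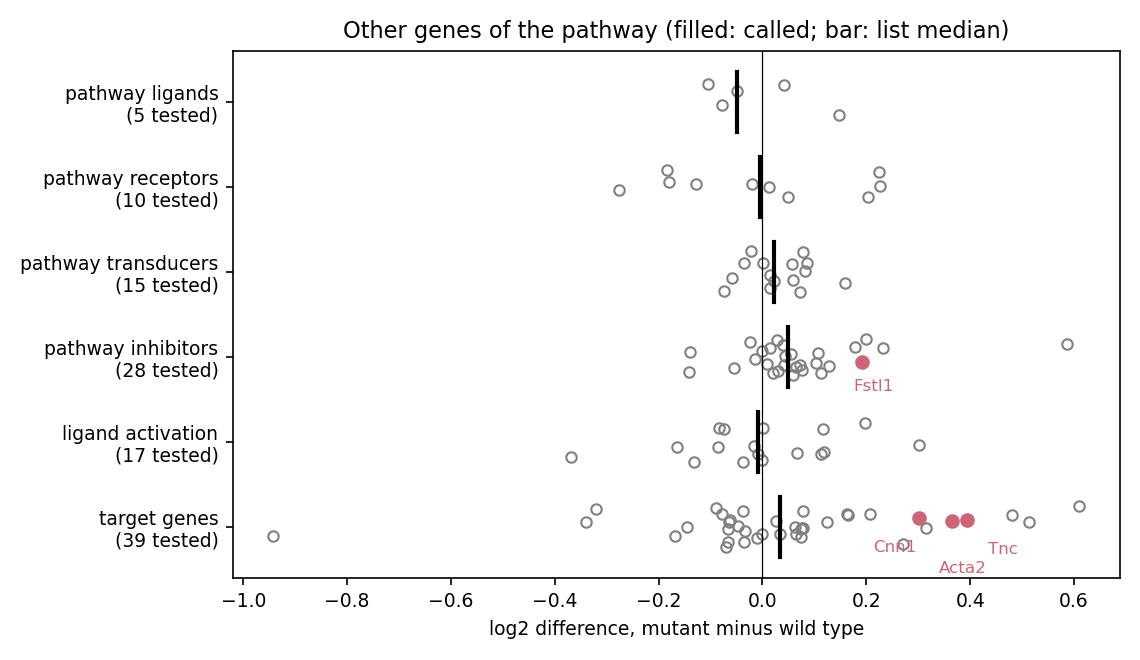
Log2 difference of mutant minus wild type (x axis) of the other tested pathway genes by list (rows), 1 circle per gene, filled red where called, with a black bar at the list median; some genes stand in 2 lists. The 4 called genes are Fstl1, Cnn1, Acta2 and Tnc, all to the right of 0.

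Acta2, Cnn1 and Tagln are also smooth muscle markers. The summed level of 9 smooth muscle and pericyte markers was 1666 to 1795 CPM in the mutants and 1396 to 1575 CPM in wild type, with no overlap, and most of that sum was Acta2. The list did not move as a whole: 5 of 9 lay above 0 and 4 below, with a median of 0.06. Within it 2 rose (Acta2 and Cnn1), 1 fell (Abcc9, a pericyte channel gene, at −0.34; limma adjusted p = 0.0192), Kcnj8 stood at −0.33 with no overlap between the groups, and Pdgfrb stood at −0.06. The late smooth muscle marker Myh11 was near the limit of counting, at 0.794 to 6.58 CPM over the 8 libraries. Macrophage markers, 10 of 10 below 0, summed to 69.9 to 88.4 CPM in the mutants and 106 to 126 CPM in wild type, none of them at 0. Of the macrophage markers 3 were called, all lower. Erythroid markers, 8 of 9 below 0, summed to 1215 to 2154 CPM and 1967 to 2739 CPM, and 2 were called lower. The share called lower among all genes tested was 1.25%. Atrial markers, 6 of 7 below 0, summed to 1376 to 1648 CPM and 1401 to 1531 CPM, with 1 called in each direction. Fibroblast and cushion markers (1906 to 2048 against 1984 to 2175 CPM), epicardial markers (205.5 to 229 against 191 to 207 CPM) and cardiomyocyte markers (39192 to 42120.0 against 40981 to 45158 CPM) overlapped between the groups in their sums. Of the cardiomyocyte markers 7 of 9 lay below 0, none called, with Tnnt2 (−0.21; limma adjusted p = 0.0658) and Myl2 (−0.17; limma adjusted p = 0.135) below all wild-type libraries. Of the fibroblast and cushion markers 7 of 9 lay below 0, and 1 fell, the fibulin gene Fbln1 (−0.34; limma adjusted p = 0.00717). Beyond the fits with endothelial or macrophage markers as a covariate, the part of these levels in the values of the 10 genes was not tested.

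**Figure D5:**
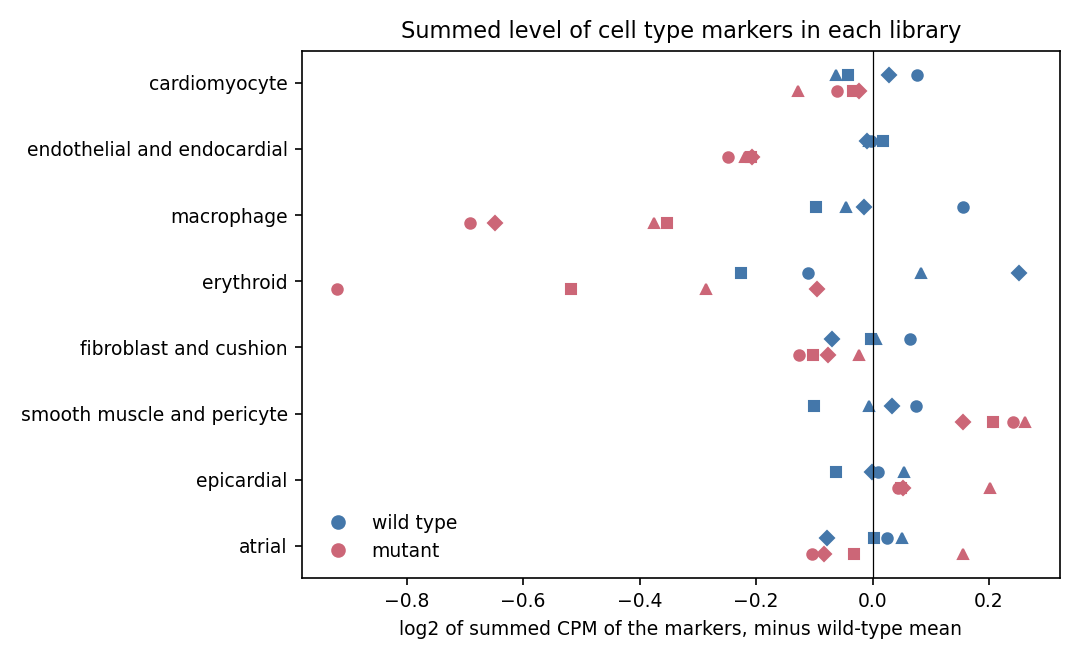
Log2 of the summed CPM of each cell type's markers (rows) in each library minus the wild-type mean (x axis), with wild type in blue, mutants in red and symbols for the replicates as in the plot of levels. The mutant libraries lie below all wild-type libraries for endothelial and macrophage markers, above them for smooth muscle markers, and overlap for the other 5 lists.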

How the data were processed

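Ventricle RNA of 4 mutant and 4 wild-type pools was sequenced single-end as polyadenylated RNA, per the labels. The submitters' processing notes name cutadapt 1.2.1, RSEM 1.16, Bowtie2 0.12.7 (version as given there), limma, edgeR and build mm9. The deposited values are a score: log2 CPM with a prior of 0.5 counts, times a constant per library that makes each column sum to 1000000, as worked out from the values. Dividing by that constant, read from the spacing of the lowest values, returned log2 CPM, and 100% of the counts came out whole within 0.001. The normalization between libraries in the deposited values was kept. A gene name table matched 13428 of 13869 identifiers, and transcript lengths are from GENCODE M21.

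The genotypes were fitted in limma 3.58.1 (R 4.3.3) by lmFit and trended eBayes for the 13740 genes whose log2 CPM averaged 0 or more. Tests were two-sided with Benjamini-Hochberg adjustment over all of them, and called means an adjusted p under 0.05. Log2 differences are mutant minus wild type, with the moderated SE. The code was tested on simulated data. Whether pools differ in litter is not stated, and the tests speak only of variation among pools. The 10 genes and all lists were chosen with earlier results of these data known. Named beside the 10 genes were Mib1, the called genes of each list or the one of smallest p, the 3 nearest profiles of the 3 largest differences, and list genes needed to describe a role; some genes that this rule names are not reported here. In all, 23 alternative settings were run. Libraries with the same replicate number did not deviate together (r across genes −0.04 to 0.10), and the numbers were not treated as pairs.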

Additional observations from a re-analysis of the deposited data

Results flagged for a closer look

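In 38 groups of 4 libraries (19 genes), 4 held a library whose gap to the nearest other, as a share of the group's range, exceeded Dixon's 95% critical value, which chance gives in about 1 in 20 groups. Mutant replicate 1 stood at 130.0 CPM for Tgfbr1 (the others at 110.0 to 113 CPM) and at 39.5 CPM for Pmepa1 (the others at 48.7 to 50.1 CPM). Wild-type replicate 4 stood at 54.2 CPM for Smad2, against 48.4 to 49.4 CPM in the others, and mutant replicate 3 at 5.54 CPM (37 counts) for Inhba, against 7.23 to 7.47 CPM. Without mutant replicate 1 the log2 difference of Tgfbr1 was −0.03.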

How the results depend on the processing

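The median log2 difference of the 10 genes, 0.25, lay between 0.23 and 0.27 with a library left out and between 0.15 and 0.31 in the other alternatives. The number of genes called, 308, was 179 without the trend, 551 at an adjusted p under 0.1, 17 with the macrophage markers as a covariate and 0 with the endothelial markers (where 1288 genes had an unadjusted p under 0.05); with a library left out it ran from 146 to 477. The calls among the other pathway genes, 4, were 2 without the trend, 9 at the threshold of 0.1, and 0 with either covariate (13 and 7 at an unadjusted p under 0.05), and 2 to 5 with a library left out. Of the 10 genes, 1 was called without the trend (Fstl3), 0 with either covariate and 2 to 4 with a library left out (2 without mutant replicate 2 and 2 without wild-type replicate 1). Both marker sums separate the genotypes with no overlap, and the SE of the 10 genes was 2.3 times as large with the macrophage and 7.8 times as large with the endothelial covariate, so genotype and these levels cannot be told apart. With the endothelial covariate the sign turned for Smad2 (−0.39), Acta2 (−0.52) and Cnn1 (−0.18), which had been called, and also for Tgfb1 (2.88), Tgfb2 (−0.11), Tgfb3 (−0.38), Tgfbr1 (−1.12), Smad3 (0.13), Inhba (−0.22), Eng (0.46) and Trim33 (−1.12), while Pmepa1 moved to 1.66 and Fstl3 to 1.51. With the macrophage covariate it turned for Tgfb1 (0.40), Tgfb3 (−0.11) and Tgfbr1 (−0.17). With the replicate block 240 genes, 3 of the 10 and 4 other pathway genes were called. Smad2 and Fstl1 were lost, and a pathway gene not called in the main fit was gained. Among wild-type and mutant libraries 1 and 0 resembled the library of their own number best. Other scalings, pseudocounts, filters, robust eBayes and voom weights kept 4 of the 10 called. Counting limits Fst (11 to 42 counts per library) and Mstn (8 to 31 counts).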
